A study of Arabidopsis thaliana with 4 samples.

Results

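A set of 10 genes, grouped here as low-oxygen response genes of *Arabidopsis thaliana*, was followed, of 23695 loci with at least 1 read. They are the plant cysteine oxidase genes PCO1 and PCO2, the pyruvate decarboxylase genes PDC1, PDC2 and PDC3 and the alcohol dehydrogenase gene ADH1. The others are the haemoglobin gene HB1, the sucrose synthase genes SUS1 and SUS4, and LBD41, which encodes a LOB-domain protein. Whether each of the 10 is induced by low oxygen was not tested here. These 10 loci form a list that had been picked from these same libraries for a rise with auxin in the wild type and none in the mutant, so their responses to auxin are given as a description and no test is made on them. In the wild type 8 of the 10 were higher with auxin, PDC2 was lower and SUS1 was hardly measured. LBD41, one of the 8, was also somewhat higher with auxin in the mutant, short of the size asked for below.

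RNA came from hypocotyls, the embryonic stems, of seedlings grown in the dark for 4 days on diluted Murashige and Skoog medium. The wild type was Col-0 and the mutant was arf7, described as a T-DNA insertion line, in the gene for ARF7, an auxin response factor that switches on transcription of its targets when auxin is present. Each genotype was grown with 500 nM naphthalene acetic acid (NAA), a synthetic auxin, or without it (mock), and whether NAA was present from sowing is not spelled out. The insertion allele and the number of seedlings pooled are not given in the sources used here. That made 4 libraries, 1 for each pairing of genotype and treatment, and their library sizes after scaling were 6791092 to 7413709 assigned reads. No group had a replicate, so no difference below has been checked against the spread between plants.

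ARF7 itself (AT5G20730) had 8 reads in mock and 8 with NAA in Col-0, and 3 and 1 in arf7, lower in arf7 in the direction of the labels but below the filter, and from a part of the model whose place relative to the insertion is not known here. The Col-0 NAA library stood apart, its levels across loci correlating with those of each other library at a Spearman rho of 0.847 to 0.881, against 0.968 to 0.981 among the others. Every difference with NAA in Col-0 given below rests on it, and without it only the comparisons within arf7 and between the mock libraries can be made.

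Low-oxygen signalling in plants turns on protein turnover. Plant cysteine oxidases use oxygen to oxidise the N-terminal cysteine of group VII ERF transcription factors such as RAP2.12, which marks these factors for destruction. When oxygen is short the factors persist and switch on fermentation genes, sucrose breakdown genes and the cysteine oxidase genes themselves. Pyruvate decarboxylase and alcohol dehydrogenase form the route from pyruvate to ethanol, which regenerates NAD+ for glycolysis. These genes are also known to be expressed in roots and in dense tissues of well-aerated plants.

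Counts were compared after scaling for library size (TMM), as CPM, the reads of a locus in every 1000000 scaled reads. A locus was called higher or lower where its fold was at least 2 and the 95% counting interval of the fold, given in parentheses below, excluded 1. The comparison took in the 17314 loci whose mean over the 4 libraries reached 1 CPM, and 9 of the 10 genes passed. A gene can pass this filter through the one library in which it is high. Levels of different genes are set side by side only as RPKM, the deposited value per kilobase of transcript model. In bulk tissue a change in the number of cells of a type and a change in RNA per cell cannot be told apart.

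With NAA in Col-0, 8 of the 9 compared genes were higher and 1, PDC2, was lower. Over all loci 15.2% were higher and 13.1% were lower in this comparison, and since the genes were picked on it nothing is read from the difference. Folds of the 8 ran from 2.43 (ADH1) to 29.7 (PDC3), and the median log2 fold of the 9 was 2.03 against -0.01 over all loci. With NAA in arf7, 0 of the 9 were higher and 2 were lower, PDC3 and HB1, where 3.92% of all loci were higher and 4.33% lower. The median log2 fold of the 9 there was -0.15. In the 8 genes that were higher, the Col-0 NAA library stood above each of the other 3, by 2.43-fold to 22.4-fold over the next highest.

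**Figure D1:**
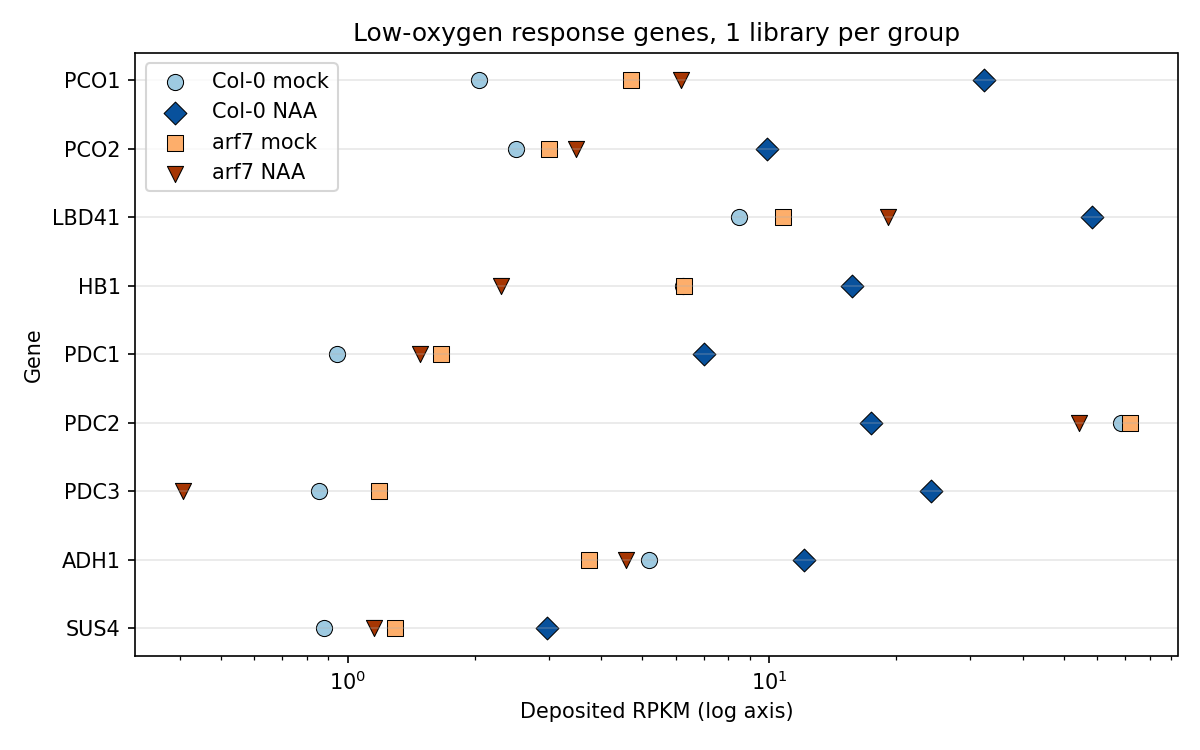
Deposited RPKM (log axis) of the 9 compared genes in the 4 libraries, 1 point per library. In 8 genes the Col-0 NAA point is the rightmost, and in PDC2 it is the leftmost, at 17.5 against 54.5 to 71.8 in the others; SUS1, with at most 3 reads per library, is not drawn.

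The cysteine oxidase genes act at the sensing step. PCO1 (AT5G15120, chromosome 5, 4898737 to 4900581, forward strand, TAIR10) had 18 counts in mock and 276 with NAA in Col-0, and 39 and 53 in arf7. It was low in both mock libraries and in arf7 NAA and high in Col-0 NAA, 16.6-fold above mock (10.3 to 28.4). In arf7 the fold was 1.33 (0.862 to 2.06). PCO2 (AT5G39890, chromosome 5, 15974393 to 15976270, forward strand) had 23, 88, 26 and 31 counts in the same order. Its fold was 4.14 in Col-0 (2.59 to 6.86) and 1.16 in arf7 (0.669 to 2.04), with the arf7 interval on both sides of 1.

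PCO1 was also the only one of the 9 genes called between the mock libraries, 2.196-fold higher in arf7 mock than in Col-0 mock (1.23 to 4.08). In that comparison 2.33% of all loci were higher and 2.3% lower. The PCO1 fold with NAA in Col-0 is thus taken from a lower starting level than the fold in arf7, and between the NAA libraries its scaled level was 5.68-fold lower in arf7 than in Col-0 (4.22 to 7.78).

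Of the remaining cysteine oxidase genes, PCO3 went the other way in Col-0, from 129 to 63 counts, 1.89-fold lower (1.39 to 2.60), which is below the size asked for. The RPKM of the 5 PCO genes summed to 16.5 in mock and 49.5 with NAA in Col-0, and 17.0 and 18.2 in arf7. PCO3 made up 63.8% of that sum in Col-0 mock and PCO1 65.4% of it in Col-0 NAA. The reads of PCO4 and PCO5 covered at most 4.88% and 6.92% of a model in Col-0 NAA, so both may be understated in the sums.

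LBD41 (AT3G02550, chromosome 3, 536505 to 537998, reverse strand) encodes a nuclear protein of class II of the LOB-domain family and is among the genes most regularly induced by low oxygen. It had 87 counts in mock and 577 with NAA in Col-0, and 104 and 191 in arf7. Col-0 NAA was highest by far, and arf7 NAA stood above both mock libraries. It is the one gene of the set whose fold with NAA in arf7 was above 1 with an interval that excludes 1. The fold was 7.17 in Col-0 (5.71 to 9.09) and 1.79 in arf7 (1.41 to 2.301), the latter short of 2-fold. Of its class II relatives, LBD37 had a fold of 1.19 in Col-0 (1.12 to 1.28), LBD38 0.513 (0.454 to 0.579) and LBD39 0.653 (0.564 to 0.755), none of them called. LBD40 was below the filter, and 9 of its reads were in Col-0 NAA, with 1 in each mock library and 0 in arf7 NAA. LBD42 had no read.

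HB1 (AT2G16060, chromosome 2, 6982531 to 6983631, reverse strand) encodes a haemoglobin with very high oxygen affinity that removes nitric oxide, which also feeds into turnover of the ERF factors. It had 39 counts in mock and 95 with NAA in Col-0, and 37 and 14 in arf7. The mock libraries were alike and the NAA libraries lay on either side of them. HB1 was 2.63-fold higher with NAA in Col-0 (1.80 to 3.93) and 2.70-fold lower with NAA in arf7 (1.43 to 5.42). Over all loci 0.601% were higher in Col-0 and lower in arf7 by this rule, which is 104 loci, where 2639 were higher in Col-0. The set was picked for a rise in Col-0 and none in arf7, so nothing is read from that share. The other haemoglobin genes were not called, with folds in Col-0 of 1.13 for HB2 (0.728 to 1.76) and 1.12 for HB3 (0.875 to 1.44).

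**Figure D2:**
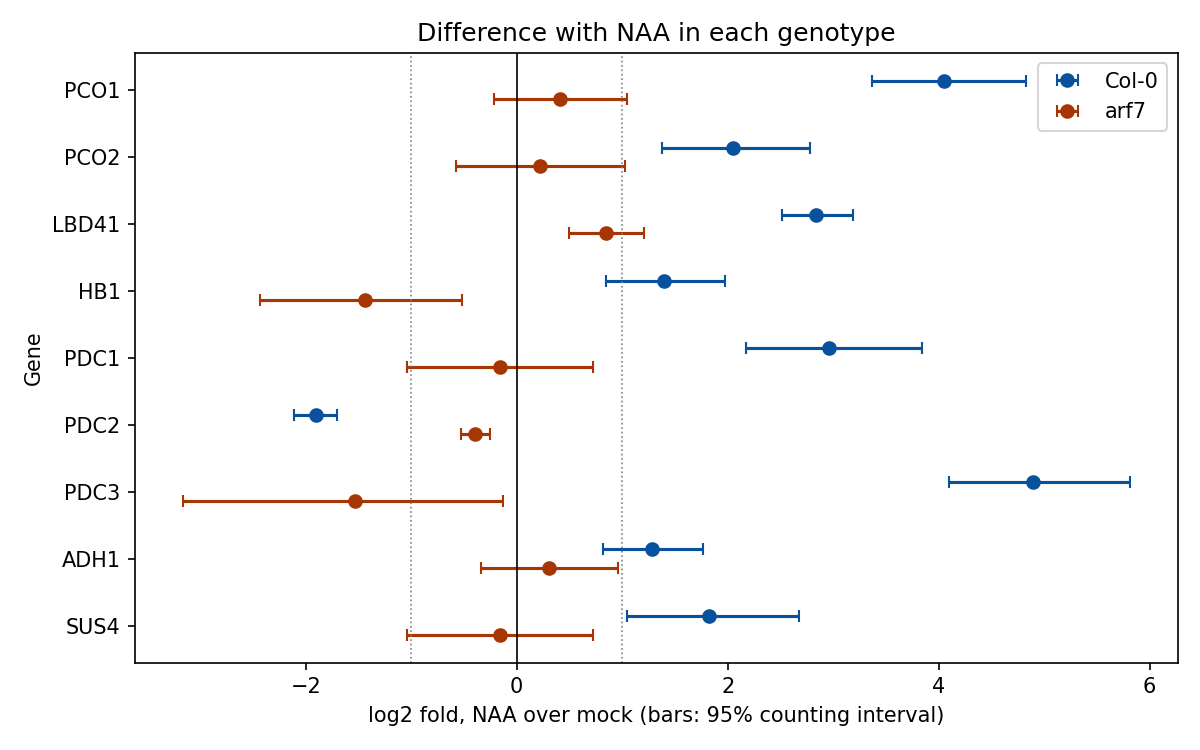
Log2 fold of NAA over mock for the 9 compared genes in Col-0 (blue) and arf7 (brown), with 95% counting intervals as bars and dotted lines at 2-fold. The Col-0 point lies beyond the right dotted line in 8 genes and beyond the left one for PDC2, while the arf7 points of PDC3 and HB1 lie beyond the left line.

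The pyruvate decarboxylase genes, whose enzyme turns pyruvate into acetaldehyde, moved in opposite directions. PDC3 (AT5G01330, chromosome 5, 132319 to 134862, reverse strand) had 13 counts in mock and 357 with NAA in Col-0, and 17 and 6 in arf7. It was low in 3 libraries and high in Col-0 NAA. Its fold was 29.7 in Col-0 (17.1 to 56.3), and in arf7 it was 2.90-fold lower (1.09 to 8.98) on few reads. PDC1 (AT4G33070, chromosome 4, 15952289 to 15954771, reverse strand) had 15, 108, 25 and 23 counts in the same order. It was 7.78-fold higher with NAA in Col-0 (4.52 to 14.4), with a fold of 0.899 in arf7 (0.488 to 1.65).

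PDC2 (AT5G54960, chromosome 5, 22310687 to 22312761, reverse strand) was the most abundant of the 10 genes in 3 of the 4 libraries and had 1053 counts in mock and 260 with NAA in Col-0, and 1043 and 814 in arf7. The mock libraries were nearly equal, with a fold of 1.00 between genotypes (0.921 to 1.09). With NAA it was 3.75-fold lower in Col-0 (3.27 to 4.31) and 1.31-fold lower in arf7 (1.20 to 1.44). The direction in Col-0 is opposite to that for which the set was picked.

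The makeup of this small family differed between libraries. In Col-0 mock the RPKM was 68.5 for PDC2, 0.942 for PDC1 and 0.855 for PDC3, and PDC2 made up 96.1% of the sum over the 4 PDC genes. In Col-0 NAA the RPKM was 24.2 for PDC3, 17.5 for PDC2 and 7.005 for PDC1, which put PDC3 at 48.9%, PDC2 at 35.2% and PDC1 at 14.1%. In arf7, PDC2 made up 94.7% in mock and 94.5% with NAA. The summed RPKM did not rise with NAA in either genotype, being 71.3 in mock and 49.5 with NAA in Col-0 and 75.8 and 57.6 in arf7. Levels of the fourth gene, PDC4, stayed low in all 4 libraries, with 12 to 18 reads.

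The stretches just before the annotated starts of these genes are shown because genes of 1 enzyme moved apart. They were read from the RefSeq genome and annotation TAIR10.1, on the gene strand, 5′ to 3′ up to the base before the start of the gene. Capitals mark 5 short motifs on either strand: AAACCA, catalogued as the anaerobic response element of maize, GCCGCC, bound by ERF factors, the G-box CACGTG, and a pair bound by auxin response factors, TGTCTC as well as its variant TGTCGG. None of the matches shown overlaps another. PDC1 lies at chr4:15954804-15955053, PDC3 at chr5:134921-135170 and PDC2 at chr5:22312833-22312975, all on the reverse strand, with PDC2 shown only as far as it lies in no other gene.
PDC1: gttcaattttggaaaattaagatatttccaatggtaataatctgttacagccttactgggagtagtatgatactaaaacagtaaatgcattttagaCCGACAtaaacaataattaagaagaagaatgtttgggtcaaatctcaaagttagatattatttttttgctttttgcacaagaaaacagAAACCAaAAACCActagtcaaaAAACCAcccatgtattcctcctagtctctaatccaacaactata
PDC3: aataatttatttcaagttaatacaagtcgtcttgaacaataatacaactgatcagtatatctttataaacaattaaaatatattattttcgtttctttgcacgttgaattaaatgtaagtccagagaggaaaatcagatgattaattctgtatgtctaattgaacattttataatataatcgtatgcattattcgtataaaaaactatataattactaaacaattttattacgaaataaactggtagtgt
PDC2: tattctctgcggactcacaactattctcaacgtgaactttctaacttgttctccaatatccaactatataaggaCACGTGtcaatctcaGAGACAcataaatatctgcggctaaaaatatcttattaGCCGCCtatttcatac

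PDC1 held AAACCA 3 times, starting 66, 59 and 44 bases before the gene, and TGTCGG on the other strand. PDC3, with the largest fold of the set, held none of the 5 motifs in its 250 bases. PDC2, which was lower, held GCCGCC once, with TGTCTC on the other strand and CACGTG besides, in the stretch shown. Over the full 250 bases before the start, AAACCA was found in 3 of the 10 genes (PDC1, ADH1 and SUS1) and in 27.3% of 27443 protein-coding genes. CACGTG was found in 3 (PDC2, ADH1 and LBD41) against 6.49% of all, GCCGCC in 1 against 1.87%, TGTCTC in 1 against 10.9%, and TGTCGG in 1 against 4.16%. These matches describe the windows only, and a gene without a match may hold the motif elsewhere.

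ADH1 (AT1G77120, chromosome 1, 28975394 to 28977417, forward strand) encodes the dehydrogenase that turns acetaldehyde into ethanol. It had 56 counts in mock and 126 with NAA in Col-0, and 38 and 48 in arf7. The fold was 2.43 in Col-0 (1.76 to 3.40), the smallest rise of the 8, and 1.23 in arf7 (0.790 to 1.94). The annotation places AT1G77122 on the opposite strand over 61 bases of ADH1, and whether reads were counted by strand is not given in the sources used here.

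Sucrose synthase cleaves sucrose with less energy cost than invertase and is known to be induced by low oxygen. SUS4 (AT3G43190, chromosome 3, 15179020 to 15183989, reverse strand) had 18 counts in mock and 59 with NAA in Col-0, and 25 and 23 in arf7. It was 3.54-fold higher with NAA in Col-0 (2.06 to 6.38), and its arf7 fold was 0.899 (0.488 to 1.65). SUS1 (AT5G20830, chromosome 5, 7050226 to 7055195, reverse strand) had 2, 3, 0 and 1 reads over at most 1.87% of a model. The files list 2 models for SUS1 and 1 for SUS4, and reads shared by several models appear to be missing from the deposited counts. No direction is given for SUS1.

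**Figure D3:**
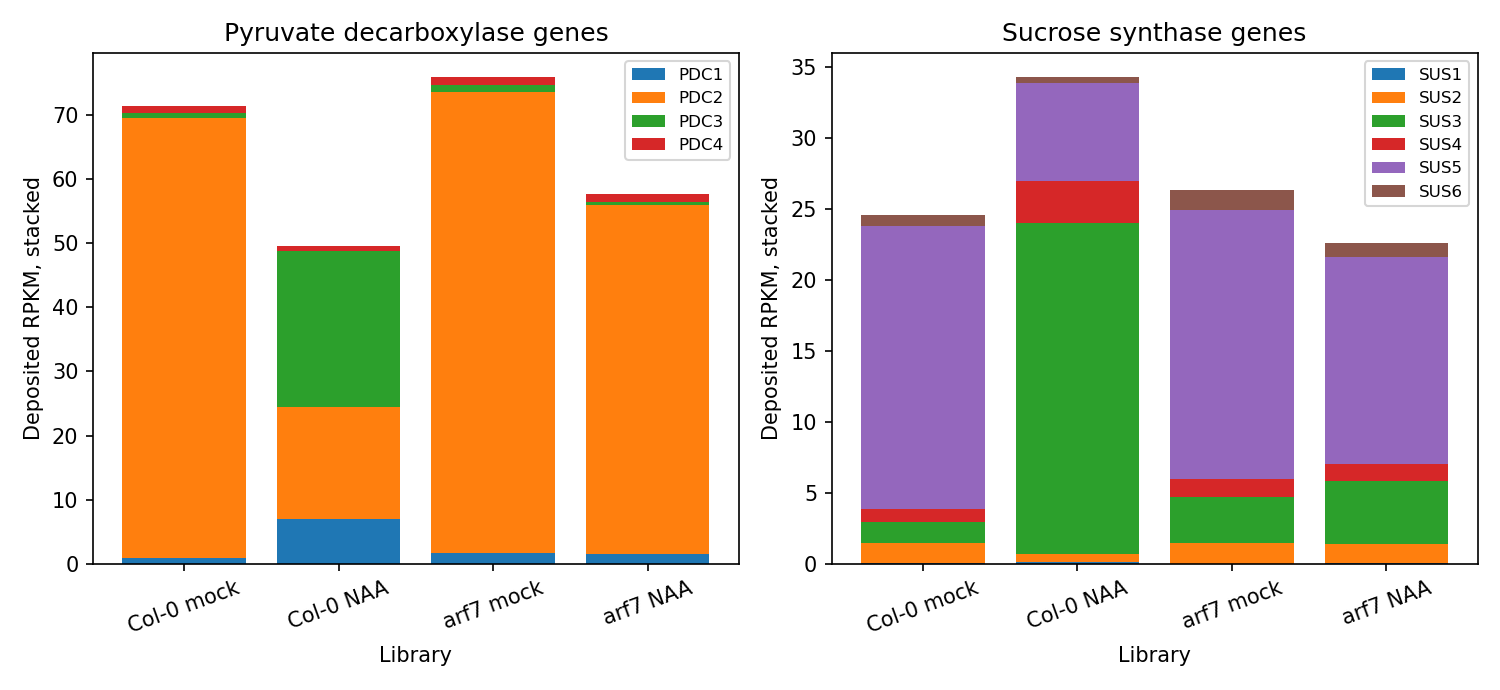
Deposited RPKM of the pyruvate decarboxylase genes (left) and the sucrose synthase genes (right), stacked by gene for each library. PDC2 fills most of the left bars except in Col-0 NAA, where PDC3 is largest, and SUS5 fills most of the right bars except in Col-0 NAA, where SUS3 is largest.

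The larger movement in this family lay outside the set. SUS3 had 33 counts in mock and 488 with NAA in Col-0, and 66 and 94 in arf7, a fold of 16.0 in Col-0 (11.2 to 23.5) and 1.39 in arf7 (1.01 to 1.94). In mock SUS3 was at 4.49 CPM in Col-0 and 9.11 CPM in arf7, so its fold in Col-0 is taken from a lower start. SUS5 was 2.77-fold lower with NAA in Col-0 (2.26 to 3.43). SUS3 made up 6.20% of the summed sucrose synthase RPKM in Col-0 mock and 68.0% in Col-0 NAA, and SUS5 made up 81.2% and 20.1%. These shares leave out whatever SUS1 contributes, and SUS6, with reads over at most 5.01% of a model, may be understated in them. Of 9 compared genes for sucrose cleavage outside the set, 2 were higher in Col-0 with NAA and 3 were lower. Over all loci 15.2% were higher and 13.1% lower in that comparison. The higher ones were SUS3 and the cell wall invertase gene CWINV1, 2.202-fold (1.58 to 3.11) from reads over 5.24% of its model. The lower ones were SUS5, SUS2 and UGP2, which makes UDP-glucose and had reads over at most 22.8% of a model. In arf7 none of the 9 was called, where 3.92% of all loci were higher and 4.33% lower.

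The NAA libraries of the 2 genotypes and the response of each genotype share samples with the comparisons above, so they add values and not independent support. In arf7 NAA against Col-0 NAA, the 8 genes were lower, from 2.80-fold (SUS4, 1.70 to 4.75) to 65.0-fold (PDC3, 29.5 to 178), and PDC2 was 2.87-fold higher (2.49 to 3.31). Over all loci 14.2% were lower and 10.8% higher. The log2 response, taken with its sign, was lower in arf7 in 7 of the 8, called weaker here. The log2 difference was 1 or more, with a counting interval below 0. The 7 include PDC3 and HB1, whose response was reversed in arf7. Over all loci compared 10.2% were higher in Col-0 and weaker in arf7, which is 67.1% of the 2639 loci higher in Col-0. The differences in log2 response ran from -1.81 (PCO2, -2.80 to -0.82) to -6.30 (PDC3, -7.82 to -4.78) in the 7. ADH1 missed the size at -0.98 (-1.74 to -0.22). The authors' deposited tables list the same 8 genes as higher with NAA in Col-0 and PDC2 as lower, with a log2 ratio from -1.97 (PDC2) to 4.83 (PDC3), and list none of the 10 for NAA in arf7 or for the mock libraries.

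A further 39 loci known as low-oxygen genes, none of them among the 10, were followed for comparison, and 31 passed the filter. With NAA in Col-0, 11 of the 31 were higher and 7 lower, with a median log2 fold of 0.31, where 15.2% of all loci were higher and 13.1% lower. In arf7, 3 were higher and 2 lower, with a median of -0.18, where 3.92% and 4.33% of all loci were. Genes of the list were called in both directions in each genotype. Some passed the filter through the library in which they were high, as AT5G45960 and AT4G10270 did through Col-0 NAA. AT4G33560 did so through arf7 mock, so these counts are partly set by the filter.

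Among the higher ones in Col-0, AT5G45960, a GDSL-type lipase gene, had 41 counts with NAA against 3 in mock, a fold of 14.8 (4.71 to 74.6). AT1G19530 was 6.31-fold higher (5.39 to 7.43), AT4G10270, of a wound-responsive family, 6.13-fold (1.77 to 32.6) and AT4G27450 3.76-fold (3.47 to 4.08). HRA1, a repressor that limits the action of RAP2.12, was 3.36-fold higher (2.40 to 4.79), with a fold of 0.716 in arf7 (0.491 to 1.04). Among the lower ones, AT4G24110 was 12.4-fold lower (7.79 to 21.0), RBOHD, an NADPH oxidase that makes reactive oxygen species, 4.96-fold (4.63 to 5.32) and SRO5 4.90-fold (2.47 to 10.8). The reads of SRO5 covered at most 9.78% of a model. The hypoxia-responsive ERF genes HRE1 and HRE2 were too low to compare, HRE1 with 6, 2, 6 and 7 reads and HRE2 with 6, 0, 18 and 1 reads in the order used above. HRE1 has 3 listed models, with reads over at most 9.45% of a model, so its counts may be understated. CML38 and AT5G10040 had no read in any library.

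In arf7 the genes of that list called with NAA were AT4G27450 at 2.36-fold (2.11 to 2.65) and AT1G33055 at 2.17-fold (1.58 to 3.02), both also higher in Col-0, and AT3G23170 at 2.01-fold (1.70 to 2.39), named here after its value was seen. With DESeq2 size factors AT3G23170 came to 1.99-fold and was no longer called. The lower ones were AT4G33560 at 3.28-fold (1.15 to 11.4) and FTM1 at 2.27-fold (1.27 to 4.21). FTM1, a stearoyl-carrier-protein desaturase gene, was 3.06-fold higher with NAA in Col-0 (1.55 to 6.497). Both started higher in arf7, FTM1 with 40 counts in arf7 mock against 12 in Col-0 mock and AT4G33560 with 16 against 4.

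**Figure D4:**
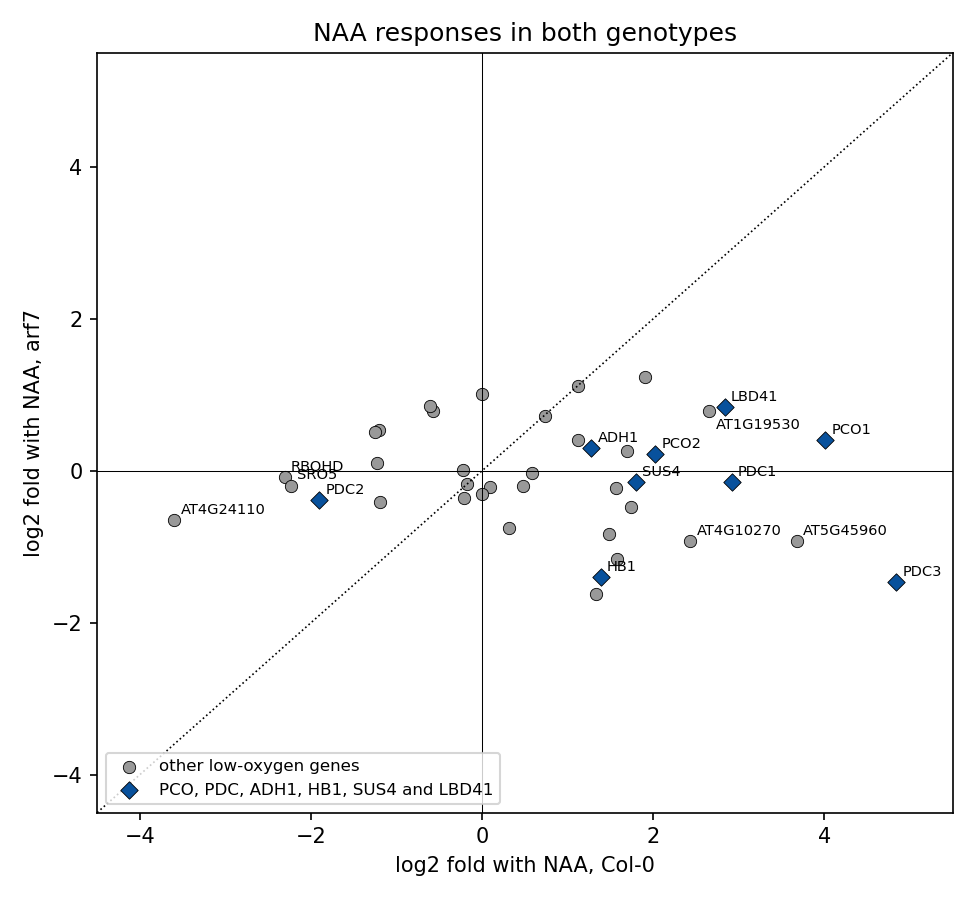
Log2 fold with NAA in Col-0 (x axis) and arf7 (y axis) for the 9 compared genes (blue diamonds) and 31 other low-oxygen genes (grey circles), with equal responses on the dotted line. The blue diamonds other than PDC2 lie to the right of 0 and below the line, and the grey circles spread to both sides of 0 in Col-0.

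Upstream of these genes lies the oxygen-sensing machinery, of which 10 genes were compared. With NAA 2 were higher and 0 lower in Col-0, a share near the 15.2% of all loci that were higher, and in arf7 0 were called. RAP2.3, a group VII ERF gene, was 2.75-fold higher in Col-0 (2.64 to 2.87) and had a fold of 1.34 in arf7 (1.30 to 1.39). Its level was 434 CPM in mock and 1195 with NAA in Col-0, and 821 and 1104 in arf7, so the mock libraries differed more than the NAA libraries did. ACBP2, whose relative ACBP1 holds RAP2.12 at the membrane, was 2.32-fold higher (1.86 to 2.90) with a fold of 0.897 in arf7 (0.717 to 1.12). PRT6, the ubiquitin ligase of the pathway, had a fold of 1.11 (1.03 to 1.20), and RAP2.12 itself held 3 to 7 reads per library from loci with several models, too few to compare. ZPR2, another oxygen-labile protein, had no read.

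Of 19 compared genes of glycolysis and the routes beside fermentation, 2 were higher and 2 lower with NAA in Col-0, and 1 was higher and 1 lower in arf7. These shares are near those of all loci, 15.2% and 13.1% in Col-0 and 3.92% and 4.33% in arf7. ALDH2B7, a mitochondrial aldehyde dehydrogenase that can use acetaldehyde, was 2.201-fold higher in Col-0 (1.99 to 2.44), and PPDK 4.19-fold (1.88 to 10.5) from reads over 3.42% of a model. GAD4, a glutamate decarboxylase gene, was 27.0-fold lower in Col-0 (14.02 to 59.8) and 4.47-fold lower in arf7 (3.26 to 6.23), and the phosphofructokinase gene PFK3 was 2.16-fold lower in Col-0 (1.51 to 3.13). PPDK was 6.11-fold higher in arf7 (2.11 to 24.1). Glutathione-dependent GSNOR, a relative of ADH1, had a fold of 1.13 in Col-0 (0.786 to 1.64), from reads over at most 7.04% of a model.

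Some markers of other tissues moved with NAA in Col-0, and those of the root in arf7 as well. The part of these markers in the results was not tested. Photosynthesis and vascular markers, of which none was called higher with NAA in Col-0, are given at the end. The endodermis markers CASP1 and CASP5, which encode proteins of the Casparian strip, and ESB1 summed to 15.7 CPM in mock and 620 with NAA in Col-0, and 13.8 and 17.9 in arf7. CASP1 and CASP5 were compared and both were higher with NAA in Col-0, CASP1 at 21.4-fold (17.6 to 26.3) and CASP5, with 2126 counts against 4, at 575-fold (224 to 2111). In arf7 CASP5 alone was called, at 2.79-fold (1.13 to 7.81). ESB1 held 2 to 6 reads per library and was not higher in Col-0 NAA. The summed level was thus high in Col-0 NAA alone, and nearly all of it there came from CASP1 and CASP5. The 11 root and root hair markers summed to 4.90, 186, 4.56 and 65.0 CPM in the same order, and all 8 that were compared were higher with NAA in both genotypes. They were LRX1, PRP1, PRP3, RHD6, EXPA18, COBL9, XTH14 and PIN2. Over all loci 15.2% were higher in Col-0 and 3.92% in arf7. Markers such as PRP1, with 0, 54, 0 and 21 reads, passed the filter only through the NAA libraries, so the count of 8 is partly set by the filter. Every root marker held at least 1 read in both NAA libraries. Of 4 shoot apex markers STM was compared, 2.195-fold higher with NAA in Col-0 (1.43 to 3.44), while CUC2, CLV3 and WUS held 0 to 4 reads each.

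**Figure D5:**
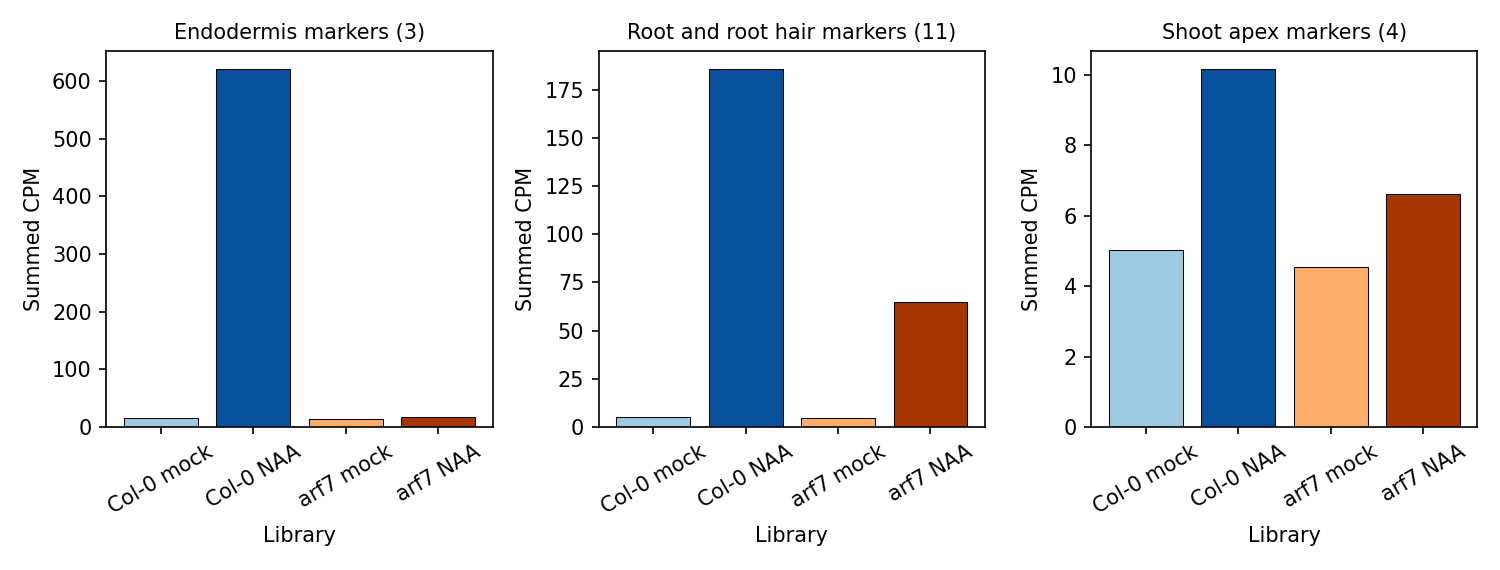
Summed CPM of markers of endodermis, root and root hair, and shoot apex in the 4 libraries, each bar 1 library. Endodermis markers reach 620 CPM in Col-0 NAA and at most 17.9 elsewhere, and root markers reach 186 in Col-0 NAA and 65.0 in arf7 NAA.

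The 5 named genes outside all lists whose pattern over the 4 libraries lay closest to the mean pattern of the 9 genes, by Euclidean distance of centred log2 CPM among 4886 candidates, were ABCG11, KCS10, UNE10, HAM2 and VTC2. ABCG11, a transporter of cuticle lipids, was closest at a distance of 0.08 and had 1122 counts in mock and 3953 with NAA in Col-0, and 1354 and 1221 in arf7. With 4 libraries, most of this pattern is the height of 1 library.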

How the data were processed

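Total RNA of 4 hypocotyl libraries was sequenced by the authors after random priming, per the labels' protocols. For each transcript model the authors deposited the unique count, its RPKM and the percent of its length that reads covered, per the file headers, and models with no read are not listed. RPKM was recomputed from count, length and library total and matched within rounding. Per the submitters' processing notes the build is TAIR10. No aligner is given in the sources used here. The comparison tables that the authors deposited give a log2 ratio, a p-value and an FDR for models past an absolute log2 ratio of 1 and an FDR near 0.001, and their test is not given in the sources used here. Their 16 columns of per-sample values were not used.

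Counts were summed per locus. Loci with 2 or more listed models (3381 of 23695) had a median model coverage of 6.37%, against 81.8% for loci with 1, so reads shared by models appear to be missing. TMM factors came from edgeR 4.0.16 (R 4.3.3) and ran from 0.947 to 1.04. Fold intervals are exact conditional binomial (Clopper-Pearson) intervals at 95%, differences in response have Wald intervals after adding 0.5 to each count, and all cover counting error only. A count of 0 allows 3 counts, which is 0.405 to 0.442 CPM. With 1 library per group no p-value was computed. The size rule was tested on simulated data. DESeq2 1.42.0 size factors, library totals, other filters, feature choices and fold sizes were tried as alternatives.

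The 10 genes and all lists were chosen with earlier results of these data known. All 10 genes are described. From the other lists, genes called with NAA were named by the largest absolute log2 fold, at most 8 in Col-0 and 4 in arf7. Sequences came from the RefSeq genome TAIR10.1, and symbols from the files or RefSeq, where all 127 listed loci matched. One marker was left out of the lists and is not reported here. Of the longest RefSeq transcript of PDC3, 8.17% of 50-base stretches also occur in PDC4, so reads there could be lost from either.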

Additional observations from a re-analysis of the deposited data

Results flagged for a closer look

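A pair of genes in the set, PDC3 and HB1, moved in opposite directions with NAA in the 2 genotypes, each with a counting interval that excludes no change. For PDC3 the log2 fold with NAA was 4.84 in Col-0 and -1.46 in arf7, where it rests on 6 against 17 reads. For HB1 the log2 fold was 1.39 in Col-0 and -1.40 in arf7, from 14 against 37 reads. The authors' comparison of the arf7 libraries, with an FDR limit near 0.001, lists neither gene. Whether the responses of the genotypes differ was not tested, since each is the difference of 2 single libraries.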

How the results depend on the processing

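No paired analysis was possible because each group is 1 library and the labels carry no replicate numbers, and no library could be left out of a group. The count of 8 genes higher and 1 lower in Col-0 with NAA stayed within 1.5 times under all 8 alternatives, as did the 7 genes with a weaker response in arf7. A mean of at least 5 CPM dropped SUS4 and left 7 higher in Col-0 and 6 weaker in arf7. ADH1 and HB1 fall short of a fold of at least 3 in Col-0. With a fold of at least 3, the genes of the set lower in arf7 with NAA were 0, those higher in arf7 mock 0, and those higher in arf7 NAA than in Col-0 NAA 0. With a fold of at least 1.5, 1 gene was higher in arf7 with NAA. Of the other low-oxygen genes, a mean of at least 5 CPM left 7 higher in Col-0 and 0 lower in arf7, a fold of at least 3 left 7 higher and 3 lower in Col-0 and 0 higher and 1 lower in arf7, and a fold of at least 1.5 gave 6 higher and 5 lower in arf7. These follow from the size asked for or from fewer loci compared. Of 356 recomputed log2 folds of the set 140 come from the filter and fold-size settings, which cannot move a fold, and the other 216 stayed inside their counting intervals, at most 0.32 away. Library totals without TMM moved the median log2 fold of all loci in arf7 NAA against Col-0 NAA to 0.13. Depth limits PDC3, PDC1 and SUS4 most, with 13 to 25 reads in both mock libraries.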

Other observations

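In the lists for the remaining tissues no gene was called higher with NAA in Col-0. Of 3 compared photosynthesis genes 2 were lower with NAA in Col-0, the photosystem gene PSAF from 8700 to 3971 counts and the rubisco activase gene RCA from 472 to 165, and none was called in arf7. The third, the rubisco subunit gene RBCS1A, had 3322 counts in mock and 3500 with NAA in Col-0, and LHCA1, below the filter, had 6 reads in Col-0 NAA and 0 in the others. The reads of RCA and RBCS1A covered at most 9.02% and 10.05% of a model, so both may be understated. Of 2 compared vascular genes none was called in either genotype, with folds in Col-0 of 0.570 for IRX3, a cellulose synthase of secondary walls (0.497 to 0.653), and 1.32 for SUC2, the phloem sucrose carrier (1.21 to 1.43). APL, below the filter, held 5 to 9 reads per library.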
